A study of Aquilegia coerulea with 32 samples.

Results

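Floral buds of the columbine *Aquilegia coerulea* at 4 stages held 90 loci whose mean mRNA level was lower at each stage than at the stage before, and which at s4, the last stage, kept at most 0.45 of the s1 level. They are called the gradual fallers here, and they are 90 of the 30023 loci in the files. The loci were chosen by their own levels: with S1 to S4 the mean TPM (a transcript's abundance corrected for its length and for sequencing depth) of the 8 libraries of each stage, S1 was at least 5, S1 > S2 > S3 > S4, S2 was above 0.6 of S1, S3 was below 0.7 of S1, S4 was at most 0.45 of S1, and every s4 library lay below every s1 library. Of 14240 loci with S1 of at least 5, 108 met these conditions, and 18 of them were left out, nearly all because they already carry an Aq symbol, which left 0.632% of the 14240.

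The samples were wild type plants of the cultivar 'Kiragami', and each library was made from axillary floral buds from which 3 sepals had been taken off. At s1 the stamen primordia were starting on a round meristem dome. By s2 the last whorls of stamens and staminodes had formed, the raised rims of the carpels appeared at s3, and by s4 the carpels had used up the apex. The plants, raised from seed, shared cultivar and growth conditions, so that stage was the only labelled difference, and there were 8 libraries a stage. Libraries of s1, s2 and s3 pooled 2 buds from 2 plants, whereas a library of s4 held 1 bud, so that number of buds and the last stage cannot be told apart.

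A flower forms from a floral meristem, a dome of dividing cells that makes organ primordia on its flanks until the carpels use it up. In Arabidopsis, boundary genes keep primordia apart, YABBY and KANADI genes mark the outer (abaxial) side of a young organ, AINTEGUMENTA-type genes keep its cells dividing, and auxin carriers place the next primordium. Homologs of each of these classes were among the gradual fallers. A homolog is meant here as a locus whose best Arabidopsis hit in the annotation of the study is the named gene, and what each locus does in *Aquilegia* was not tested here.

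Library totals ran from 21502103 to 31647297 estimated counts. Markers of the tissue were in place: the meristem genes AqLFY and AqSTM1 were present in all libraries, with means of 312 and 33.0 TPM at s4, against 1077 and 142 TPM at s1, and the carpel gene AqCRC had 30.5 TPM at s4, against 11.4 TPM at s1. Genes of other tissues had higher means at s4, with the anther gene AqEXS at 31.03 TPM at s4, against 4.94 TPM at s1, and the stomatal gene AqMUTE at 7.15 TPM at s4, against 2.01 TPM at s1. Because whole buds were measured, fewer cells of a type and less RNA per cell cannot be told apart in any value below. The part of these cell types in the levels of the 90 loci was not tested. Replicate 4 of s4 stood apart, being the lowest of the 8 s4 libraries for 41.1% of all loci with S1 of at least 5 and the highest for 25.4%. Without it, 94 loci met the conditions, 80 of them among the 90.

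The steps were uneven in size. The median locus had 29.2 TPM at s1, 22.5 TPM at s2, 14.6 TPM at s3 and 7.99 TPM at s4 (medians over the 90 loci of the stage means). Relative to its own S1, the median locus kept 0.764 by s2, 0.556 by s3 and 0.341 by s4. The last step was the deepest on the log2 scale in 66 loci, the middle step in 15 and the first step in 9, and the median shares of the whole log2 difference were 24.2% for s2 against s1, 30.8% for s3 against s2 and 46.7% for s4 against s3. S4 over S1 ran between 0.0424 and 0.45, with 19 loci under 0.25 and 21 at 0.4 or more. Levels at s1 spanned from 5.002 to 5644 TPM, with 17 loci above 100 TPM and 20 below 10 TPM.

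Some loci sat close to the limits of the rule. Aqcoe3G223800 had S4 at 0.449992 of S1 and was kept, whereas Aqcoe1G399600 at 0.450534 was not. For S2 over S1 the nearest loci were Aqcoe1G141100 at 0.601 inside and Aqcoe5G408000 at 0.593 outside, and for S3 over S1 they were Aqcoe7G318500 at 0.695 inside and Aqcoe5G452400 at 0.710 outside. For the level, Aqcoe3G168200 was inside with S1 of 5.002 TPM and Aqcoe4G151000 outside with 4.85 TPM. For the separation of s4 and s1, the lowest s1 library of Aqcoe7G077700, a homolog of the vacuolar protease BETA-VPE, was 1.004 times its highest s4 library, and that of Aqcoe4G041300 was 0.986 times. For the order, Aqcoe2G265000 had S2 at 0.989 of S1 and Aqcoe7G121400 at 1.03. Nearest to a tie at the later steps were Aqcoe4G009200, with S4 at 0.929 of S3, and Aqcoe7G357500, with S3 at 0.859 of S2.

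**Figure D1:**
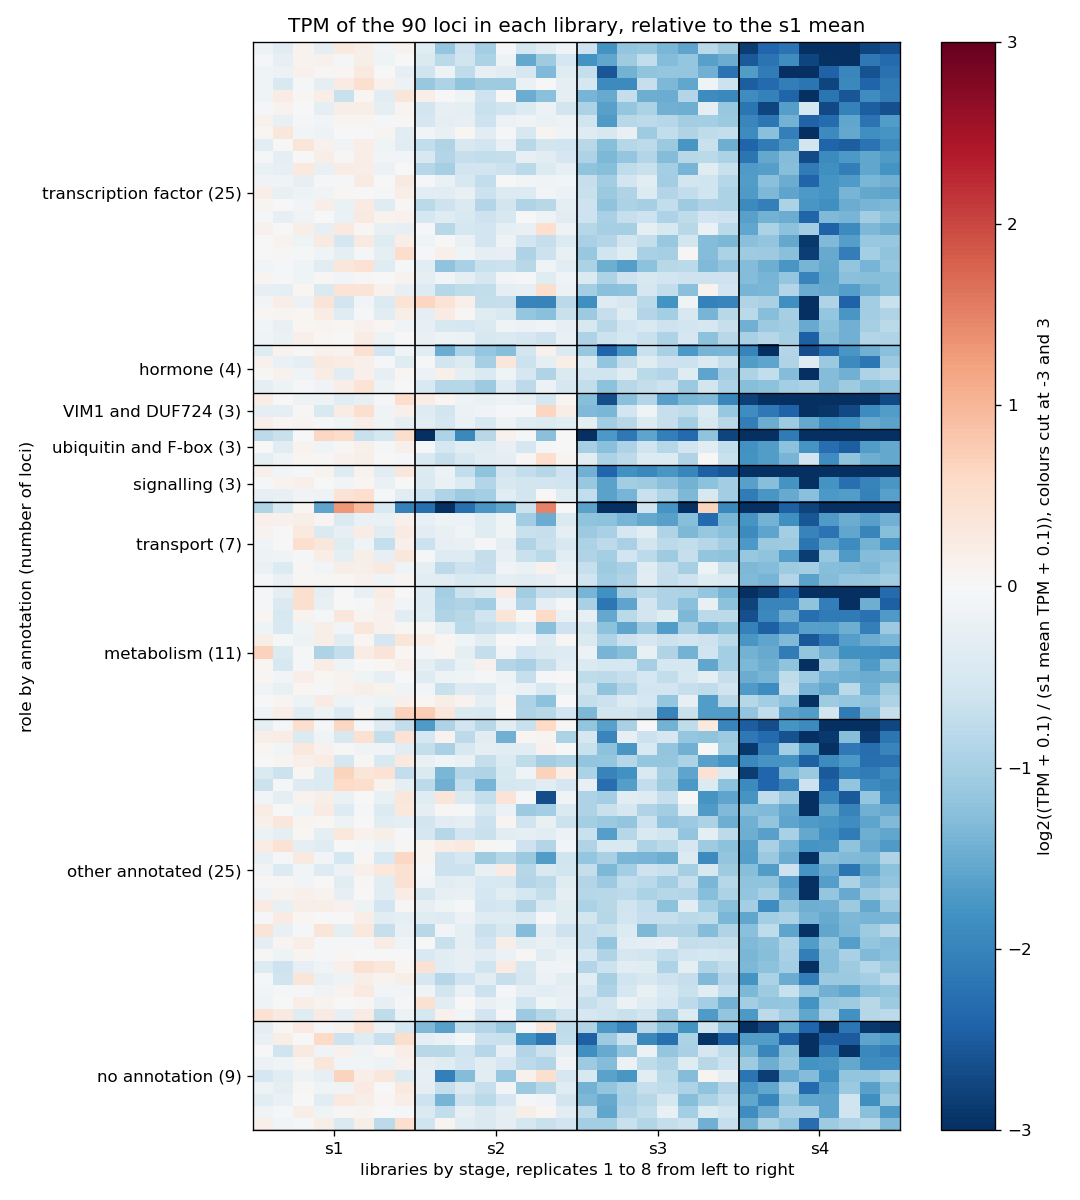
TPM of the 90 loci (rows, grouped by annotated role) in the 32 libraries (columns, s1 to s4, replicates 1 to 8 within a stage), as log2 of the ratio to the s1 mean of the locus after adding 0.1 TPM to both. Colours turn from near white at s1 to deeper blue at s4 in every group of loci, and the column of s4 replicate 4 is darkest, with the lowest s4 value for 46 of the 90 loci.

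Summed over the 90 loci, the share of all TPM averaged 1.25 ± 0.0882% in s1 libraries, 0.999 ± 0.0896% in s2 libraries, 0.763 ± 0.107% in s3 libraries and 0.474 ± 0.0669% in s4 libraries (SD, n = 8 each). Single s1 libraries held 1.1001 to 1.39%, s2 libraries 0.879 to 1.11%, s3 libraries 0.583 to 0.903% and s4 libraries 0.360 to 0.586%. Neighbouring stages overlapped in these sums by 1 or a few libraries, such as s4 replicate 3 with 0.586% and s3 replicate 2 with 0.583%, whereas s3 and s1, s4 and s2, and s4 and s1 did not overlap. A single locus, the LTP4 homolog Aqcoe1G403100, gave 5644 of the 12462 TPM summed at s1. Averaged with equal weight per locus, the log2 ratio to the s1 mean was -0.03 (-0.15 to 0.13) for s1, -0.45 (-0.59 to -0.31) for s2, -0.97 (-1.25 to -0.72) for s3 and -1.81 (-2.34 to -1.49) for s4, and on this scale no library of a stage overlapped with a neighbouring stage. The lowest s3 library was replicate 2 and the lowest s4 library was replicate 4. These sums use the values that chose the loci and describe them.

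**Figure D2:**
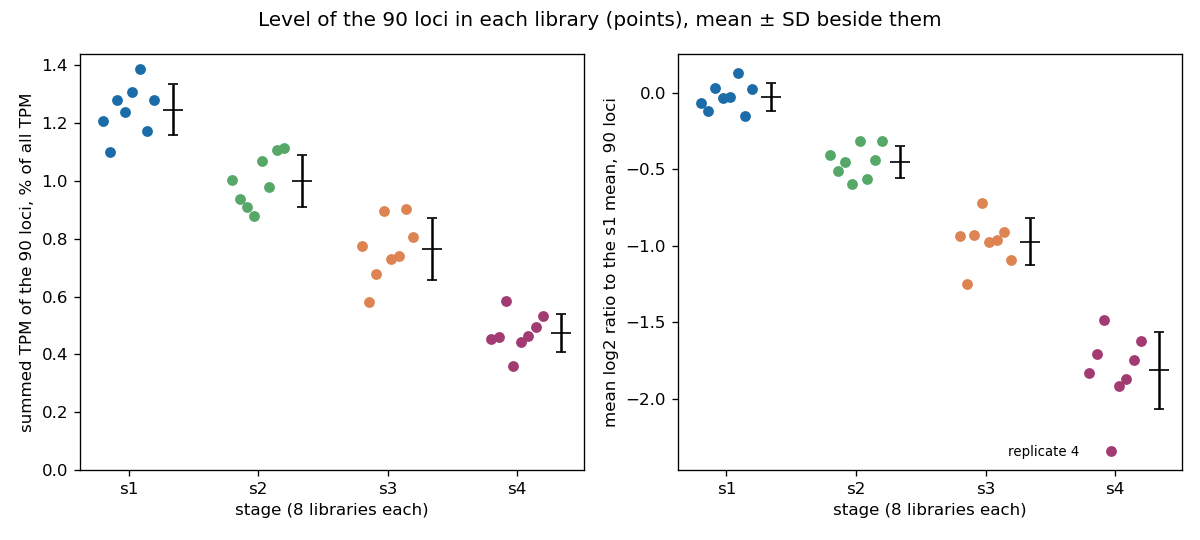
Level of the 90 loci in each library (points) with the mean ± SD of the 8 libraries beside them: on the left the summed TPM as a percent of all TPM, on the right the mean over loci of the log2 ratio to the s1 mean, both from s1 to s4. The sums average 1.25% at s1 and 0.474% at s4, and on the right the 4 stages form 4 bands with s4 replicate 4 lowest at -2.34.

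The same loci can be read through a count test fitted on all 20477 loci with over 1 CPM in at least 1 library (edgeR's quasi-likelihood test, called at a Benjamini-Hochberg adjusted p under 0.05 and a log2 fold change of at least 1 in size). Because the rule used these libraries, the calls are a description, and the share of all loci with the same call is set beside each. At s2 against s1, 0 of the 90 loci were called lower (0.107% of all loci tested) by edgeR, as by DESeq2, and at an unadjusted p under 0.05 the count is 0 as well, since the deepest log2 fold change there was -0.72 and the rule asks for S2 above 0.6 of S1. Called lower were 4 at s3 against s2 (0.0537% of all loci), 16 at s4 against s3 (0.308%), 21 at s3 against s1 (0.606%), 58 at s4 against s2 (1.09%) and 90 at s4 against s1 (1.94%). For comparison, 7.31% of all loci were called higher at s4 against s1. The median log2 fold change of the 90 loci was -0.36 at s2 against s1, -0.47 at s3 against s2, -0.66 at s4 against s3 and -1.48 at s4 against s1 (0.01 over all loci tested). By number of comparisons, 28 loci were called in 1, 35 in 2, 19 in 3, 6 in 4 and 2 in 5.

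Without any model, the ranges of neighbouring stages were often close. Every s2 library lay below every s1 library in 2 loci (0.239% of all loci tested), every s3 library below every s2 library in 8 (0.0977%) and every s4 library below every s3 library in 16 (0.391%). Over longer intervals the counts were 51 for s3 against s1 (1.07%), 59 for s4 against s2 (1.29%) and 90 for s4 against s1 (3.27%), the last being a condition of the rule. No locus was apart at all 3 steps. Short of that by 1 library at 1 step were 3 loci, Aqcoe7G116200, the kinase locus Aqcoe7G055500 and Aqcoe1G205900. The last of these is a homolog of the red light receptor phytochrome E (PHYE), and had 7.95, 9.04 and 10.04 TPM at s1, 4.88, 6.35 and 7.92 TPM at s2, 2.92, 3.94 and 4.37 TPM at s3 and 0.852, 2.56 and 3.67 TPM at s4 (lowest, median and highest of 8 libraries here and below). Its s2 libraries lay below all s1 libraries, its s3 libraries below all s2 libraries, and 7 of its 8 s4 libraries below all s3 libraries. The other locus with s2 wholly below s1 was the B3 domain locus Aqcoe6G028500, with 9.06, 11.8 and 15.2 TPM at s2, against 15.3, 17.2 and 22.2 TPM at s1.

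Transcription factors were 25 of the 90 loci (27.8%, against 21.2% of the 397 loci called lower at s4 against s1), with a median of 38.4 TPM at s1 and of 9.59 TPM at s4. The 397 include the 90. Loci without annotation, which cannot be classed, were 10% of the 90 but 20.7% of the 397, so the shares are not like for like. Log2 fold changes given from here on are those of edgeR's fit for s4 minus s1 with their SE (n = 8 libraries each), and stage values are the lowest, median and highest TPM. Genes of organ polarity and growth are given first. Of these, the loci other than the homologs of YAB3 and the first ANT were picked out for their known roles after their values were seen, and the same holds for TEL2, NTT, LBD31 and other loci named as such below.

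Aqcoe7G078300, a homolog of YABBY3 (YAB3), which with its relatives specifies the abaxial side of lateral organs in Arabidopsis, was the most abundant of the polarity genes. It had 570.5, 623 and 671 TPM at s1, 435, 546 and 602 TPM at s2, 326, 405 and 461 TPM at s3 and 155, 253 and 277 TPM at s4. Every s4 library lay below every s3 library, with a narrow spread at each stage and low values in s3 replicate 2 and s4 replicate 4, and the log2 fold change was -1.31 ± 0.08. Aqcoe3G169700, a homolog of KANADI2 (KAN2), another abaxial determinant, was expressed at a lower level. It had 24.5, 28.2 and 32.6 TPM at s1, 18.1, 22.6 and 26.8 TPM at s2, 13.1, 16.3 and 21.5 TPM at s3 and 8.22, 9.49 and 11.2 TPM at s4. The s4 values were tightly grouped and wholly below those of s3, with a log2 fold change of -1.49 ± 0.09.

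There were homologs of AINTEGUMENTA (ANT), which maintains cell division and so organ size in Arabidopsis, at 2 loci of the set. Aqcoe6G259300 had 111, 163 and 191 TPM at s1, 97.5, 129 and 159 TPM at s2, 62.5, 83.2 and 108 TPM at s3 and 21.2, 65.05 and 72 TPM at s4. Its stages overlapped at each single step, s4 replicate 4 was far below the other s4 libraries, and its log2 fold change was -1.35 ± 0.17. Aqcoe5G094800, the other ANT homolog, had 43.99, 50.6 and 62.9 TPM at s1, 31.5, 48.8 and 51.7 TPM at s2, 25.1, 33.4 and 41.8 TPM at s3 and 9.86, 17.4 and 21.7 TPM at s4. Here s4 was wholly below s3, s1 and s2 overlapped broadly, and the log2 fold change was -1.52 ± 0.12. Across libraries of the same stage, Aqcoe5G094800 was also the locus that moved most like the rest of the set, with r = 0.77 over 32 libraries between its deviation from the stage mean and the average deviation of the other 89 loci.

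Aqcoe3G037600 is a homolog of JAGGED (JAG), a zinc finger gene that promotes growth of the distal part of petals and other organs in Arabidopsis. It had 57.5, 67.2 and 72.7 TPM at s1, 43.3, 57.3 and 61.8 TPM at s2, 20.3, 35.1 and 44.1 TPM at s3 and 12.3, 15.95 and 24.9 TPM at s4. Apart from replicate 2 of s3, which lay within the range of s4, s4 was below s3, and the log2 fold change was -1.85 ± 0.12. Aqcoe5G113900 is a homolog of CUP-SHAPED COTYLEDON3 (CUC3), a NAC domain gene of organ boundaries. It had 46.02, 53.9 and 61.8 TPM at s1, 18.8, 33.3 and 48.7 TPM at s2, 15.7, 20.6 and 32.7 TPM at s3 and 5.89, 10.1 and 14.9 TPM at s4. All s4 libraries were below all s3 libraries and 7 of 8 s2 libraries were below all s1 libraries, and the log2 fold change of -2.37 ± 0.18 was deeper than the set's median of -1.48. The locus with a study symbol that shares this best hit, Aqcoe6G165500, was not in the set, with 5.08 TPM at s4, against 31.7 TPM at s1.

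Aqcoe2G233200, a homolog of REPLUMLESS (RPL, also PENNYWISE), a BELL-type homeodomain gene that works with the meristem gene STM in Arabidopsis, was high in 1 of the s4 libraries. It had 32.3, 38.7 and 51.9 TPM at s1, 21.3, 26.7 and 34.1 TPM at s2, 11.9, 20.2 and 25.2 TPM at s3 and 7.09, 8.86 and 27.2 TPM at s4. The value of 27.2 TPM was that of s4 replicate 4, the library with the lowest s4 value of 46 of the 90 loci and the highest of 11, and the remaining 7 s4 libraries were below all s3 libraries. The log2 fold change was -1.72 ± 0.22. The PLATZ zinc finger locus Aqcoe7G079300 and the F-box locus Aqcoe7G318500 were likewise high in s4 replicate 4, with highest s4 values of 8.42 and 14.1 TPM.

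**Figure D3:**
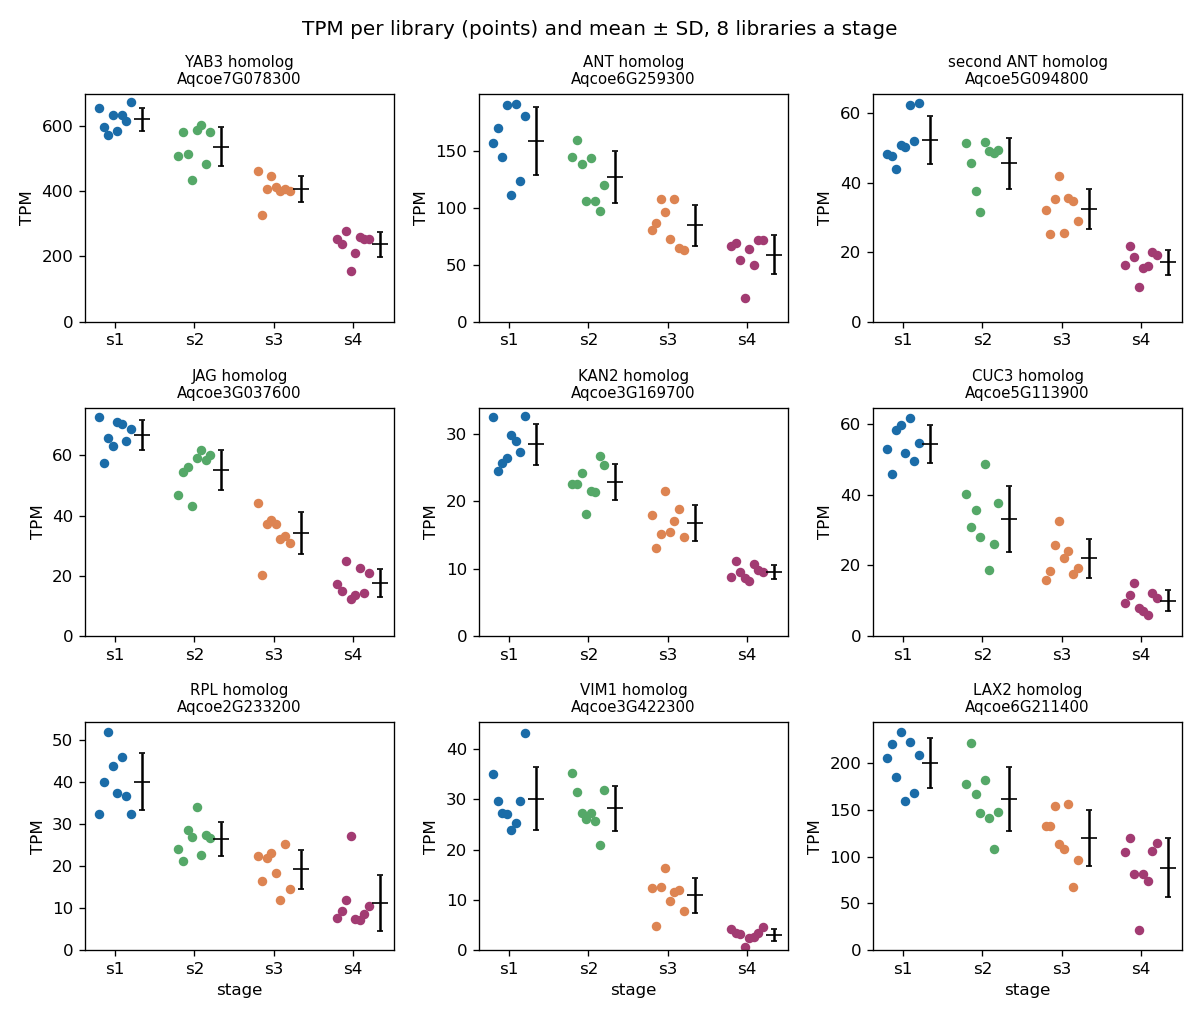
TPM in each library (points) with mean ± SD beside them (8 libraries a stage, s1 to s4, axes from 0) for 9 loci of the set: homologs of YAB3, both of ANT, JAG, KAN2, CUC3, RPL, VIM1 and LAX2. Levels step down from s1 to s4 in each panel, and s4 replicate 4 is the isolated low point for LAX2 (22 TPM) and the isolated high point for RPL (27.2 TPM).

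Other transcription factors were led by Aqcoe5G038100, a homolog of ETHYLENE RESPONSE FACTOR7 (ERF7), a repressor of the AP2/ERF family in Arabidopsis and the most abundant regulator of the set. It had 683, 866 and 1230.2 TPM at s1, 509, 734 and 1329.7 TPM at s2, 387, 504 and 988 TPM at s3 and 294, 347 and 499.7 TPM at s4. Replicate 7 was the high library at both s2 and s3, with no overlap between s4 and s2, and the log2 fold change was -1.29 ± 0.19. Aqcoe5G172800, a Dof zinc finger locus, had a steeper course. It had 119, 154 and 227 TPM at s1, 70.6, 82.04 and 162 TPM at s2, 43.4, 82.6 and 149 TPM at s3 and 24.05, 33.9 and 42.6 TPM at s4. The s4 libraries were wholly below those of s3, whereas s3 and s2 overlapped, and the log2 fold change was -2.18 ± 0.23.

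TARGET OF MONOPTEROS6 (TMO6), a Dof gene downstream of the auxin response factor MONOPTEROS in Arabidopsis, was the best hit of a further pair. Aqcoe6G097000 had 68.8, 80.3 and 97.4 TPM at s1, 52.8, 60.9 and 81.7 TPM at s2, 41.3, 51.4 and 54.2 TPM at s3 and 15.2, 30.6 and 39.5 TPM at s4, and Aqcoe1G258100 had 4.02, 7.99 and 10.6 TPM at s4, against 21.7, 26.3 and 30.2 TPM at s1. In both, 7 or 8 of the s4 libraries were below all s3 libraries, and the log2 fold changes were -1.37 ± 0.12 and -1.71 ± 0.13. Of 3 bHLH loci, Aqcoe7G166200 had 54.6, 70.5 and 89.02 TPM at s4, against 135, 162 and 171 TPM at s1, with one of the smallest SEs of the set (log2 fold change -1.10 ± 0.08). Aqcoe3G223800, the locus just inside the S4 limit, had 10.2, 28.4 and 31.1 TPM at s4, against 49.02, 56.3 and 65.9 TPM at s1, and Aqcoe3G217600 had 0.557, 1.19 and 1.93 TPM at s4, against 5.30, 6.45 and 7.65 TPM at s1. The s4 and s1 ranges of these loci did not touch, as the rule requires. For Aqcoe3G223800 the log2 fold change was -1.07 ± 0.14, or -0.97 without s4 replicate 4, its lowest library, which is short of a call.

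Some further transcription factors were chosen after their values were seen. Aqcoe7G065300, a homolog of LBD31, had 47.5, 60.4 and 73.3 TPM at s1, 26.6, 43.9 and 58.3 TPM at s2, 17.2, 26.7 and 39.1 TPM at s3 and 6.15, 8.52 and 12.8 TPM at s4. Its s4 libraries were wholly below those of s3 and it had the lowest S4 over S1 of the 25 transcription factors, 0.148, with a log2 fold change of -2.69 ± 0.17. Aqcoe2G016000 is a homolog of NO TRANSMITTING TRACT (NTT), a zinc finger gene of the carpel's transmitting tract in Arabidopsis. Its first and last steps were of nearly equal size on the log2 scale, the first being slightly the larger. It had 10.6, 13.9 and 16.1 TPM at s1, 7.22, 8.34 and 11.4 TPM at s2, 5.91, 7.02 and 8.92 TPM at s3 and 3.23, 4.40 and 7.08 TPM at s4, with 7 of 8 s2 libraries below all s1 libraries and a log2 fold change of -1.49 ± 0.13. Aqcoe2G397100, an HMG box locus, and Aqcoe2G397000, an AP2/ERF locus, have consecutive identifiers and were the only neighbouring pair in the set. Aqcoe2G397000 had means of 13.3, 12.1, 8.54 and 3.61 TPM from s1 to s4, and Aqcoe2G397100 had 37.9, 29.7, 14.8 and 8.02 TPM.

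B3 domain loci formed a family within the set. In Arabidopsis the B3 gene VERNALIZATION1 (VRN1) binds DNA and keeps a flowering repressor off after cold, and it is the best hit of 3 of the 5 B3 loci here. Aqcoe1G399300 had 5.33, 16.3 and 18.9 TPM at s4, against 32.04, 37.1 and 55.5 TPM at s1, Aqcoe2G102300 had 1.95, 10.7 and 13.2 TPM at s4, against 18.1, 24.03 and 27.04 TPM at s1, and Aqcoe3G168200, the locus just inside the level limit, had 0.410, 2.43 and 3.11 TPM at s4, against 3.39, 4.74 and 6.67 TPM at s1. All 3 had their lowest s4 value in replicate 4. Aqcoe3G167000 and Aqcoe6G028500 had other B3 genes as best hits, with log2 fold changes of -1.32 ± 0.14 and -1.66 ± 0.14. In the study's annotation, which holds only loci called in some comparison of the study, 22 B3 loci were tested, of which 16 were called lower and 1 higher at s4 against s1 (median log2 fold change -1.23, against 0.01 over all loci tested). Of the 1952 loci of that annotation that were tested, 19.6% were called lower and 64.5% higher there, against 1.94% and 7.31% of all 20477 loci. The annotation was itself chosen on these samples, and so were the 5 loci of the set, so these counts are no independent evidence of a direction.

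Hormone genes of the set were 4. Aqcoe6G211400 is a homolog of LIKE AUXIN RESISTANT 2 (LAX2), a carrier that takes auxin into cells. It had 159, 207 and 233 TPM at s1, 108, 158 and 222 TPM at s2, 67.04, 123 and 157 TPM at s3 and 22, 93.7 and 120.1 TPM at s4. The low value at s4 was that of replicate 4, and s4 and s3 overlapped in all but that library. The log2 fold change of LAX2 was -1.11 ± 0.21, and -0.97 without s4 replicate 4, which is under the size asked for a call. Aqcoe7G357500 is a homolog of NAKED PINS IN YUC MUTANTS 1 (NPY1), needed for auxin-driven organ formation in Arabidopsis. It had 93.4, 108 and 149 TPM at s1, 52.96, 72.3 and 100.1 TPM at s2, 48.3, 65.1 and 77.2 TPM at s3 and 45.5, 49 and 58.8 TPM at s4. Its largest step was the first, after which the stages overlapped, and the log2 fold change was -1.06 ± 0.11, or -0.998 without s1 replicate 6, also short of a call.

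The other hormone loci act in cytokinin and gibberellin metabolism. Aqcoe1G038400, a homolog of CYTOKININ OXIDASE1 (CKX1), whose product breaks cytokinin down, had 5.69, 8.92 and 11.6 TPM at s1, 2.94, 5.02 and 9.30 TPM at s2, 1.51, 3.21 and 5.29 TPM at s3 and 0.652, 2.24 and 4.55 TPM at s4. All s3 libraries were below all s1 libraries, with wide spread at each later stage (log2 fold change -1.75 ± 0.28). Aqcoe2G060500, a homolog of the cytochrome P450 gene CYP714A1, which inactivates gibberellin in Arabidopsis, had 2.14, 3.91 and 7.62 TPM at s4, against 7.75, 10.3 and 12.1 TPM at s1. The highest s4 value lay just below the lowest s1 value, and the log2 fold change was -1.17 ± 0.20. Over the 26 auxin loci of the same annotation that were tested, 9 were called lower and 10 higher at s4 against s1 (34.6% and 38.5%, against 19.6% and 64.5% of all annotated loci), with a median log2 fold change of -0.04.

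A pair of loci is related to DNA methylation by its hits. The best hit of both Aqcoe3G422300 and Aqcoe7G260600 is VARIANT IN METHYLATION1 (VIM1), which helps to copy DNA methylation onto new strands in Arabidopsis. Aqcoe3G422300 had 23.98, 28.4 and 43.2 TPM at s1, 20.8, 27.3 and 35.2 TPM at s2, 4.72, 11.7 and 16.3 TPM at s3 and 0.656, 3.28 and 4.56 TPM at s4. The first step was nearly flat, every s3 library was below every s2 library, and every s4 library was below every s3 library. Its log2 fold change was -0.07 ± 0.22 at s2 against s1, -1.38 ± 0.23 at s3 against s2 and -1.77 ± 0.23 at s4 against s3, and it was called in 5 of the 6 comparisons. Aqcoe7G260600 had 30.6, 36.96 and 42.1 TPM at s1, 25.4, 28.98 and 33.2 TPM at s2, 17.8, 21.6 and 29.8 TPM at s3 and 8.70, 12.4 and 17.6 TPM at s4. That second VIM1 homolog stepped down more evenly, was apart between s4 and s3, and had a log2 fold change of -1.50 ± 0.12, against -3.22 ± 0.24 for Aqcoe3G422300. Aqcoe2G265000, which is placed beside them in the heatmap and is annotated by a domain of unknown function (DUF724) only, had 0.537, 1.96 and 3.04 TPM at s4, against 7.20, 9.69 and 13.9 TPM at s1, and hardly differed between s2 and s1, with a log2 fold change of 0.01 ± 0.22 there.

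Of the protein modification genes, Aqcoe2G063200 was the most abundant. It is a homolog of SUMO2, a small ubiquitin-like peptide attached to other proteins. It had 476, 603 and 660.04 TPM at s1, 412, 489.7 and 601 TPM at s2, 247, 342 and 469 TPM at s3 and 107, 179 and 254 TPM at s4. At s3, 7 of 8 libraries were below all s2 libraries, at s4, 7 of 8 were below all s3 libraries, and the log2 fold change was -1.70 ± 0.14. The other annotated locus with this best hit, Aqcoe1G441800, had 52.6 TPM at s4, against 85.6 TPM at s1, with a log2 fold change of -0.66 ± 0.15 and no call.

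Aqcoe4G199100, whose best hit is UNUSUAL FLORAL ORGANS (UFO), the F-box partner of LEAFY in Arabidopsis, had the lowest S4 over S1 of the set, 0.0424. It had 4.27, 6.30 and 11.48 TPM at s1, 0.00639, 3.97 and 8.11 TPM at s2, 0.000432, 1.64 and 3.12 TPM at s3 and 0, 0.0323 and 1.62 TPM at s4. Replicate 1 was the lowest library at s1, s2 and s3. At s4 the locus was listed at 0 in replicates 1, 6, 7 and 8, and replicate 3 alone was above 1 TPM. The estimated counts were not whole numbers in 27 of 32 libraries, and added to those of Aqcoe0095s0001, another UFO hit, they were whole in all 32 libraries within 0.05, which is what reads shared between the loci give. The log2 fold change was -4.46 ± 0.79, and -5.65 without s4 replicate 3. The summed pair had S2 at 0.561 of S1 and would not have met the rule, so that the gradual course of Aqcoe4G199100 alone is uncertain. The summed means were 62.6, 35.1, 13.9 and 4.10 TPM from s1 to s4. A last F-box locus, Aqcoe7G318500, had 5.70, 7.26 and 14.1 TPM at s4, against 17.01, 21.2 and 23.5 TPM at s1. Of 29 F-box loci tested in the annotation, 13 were called lower and 13 higher at s4 against s1 (44.8% each way, against 19.6% lower and 64.5% higher of all annotated loci, which were annotated because the study called them somewhere).

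Signalling genes were 3. Aqcoe7G055500, a protein kinase locus, was lower at each stage. It had 17.1, 22.5 and 28.4 TPM at s1, 9.62, 13.9 and 19.7 TPM at s2, 3.69, 5.72 and 8.10 TPM at s3 and 0.459, 1.99 and 2.42 TPM at s4. Both later steps were wholly apart, 7 of 8 s2 libraries were below all s1 libraries, and the locus was called in 5 of the 6 comparisons. Log2 fold changes of this kinase were -0.61 ± 0.20 at s2 against s1, -1.38 ± 0.21 at s3 against s2 and -1.60 ± 0.21 at s4 against s3. Aqcoe7G043000, a homolog of IQD22 of the calmodulin-binding IQ-domain family, had 19.6, 25.9 and 35.3 TPM at s4, against 65.7, 76.8 and 119 TPM at s1, with a log2 fold change of -1.59 ± 0.17. PHYE is described above, with a log2 fold change of -1.83 ± 0.16.

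Transport genes held the most abundant locus of all. Aqcoe1G403100, a homolog of LIPID TRANSFER PROTEIN 4 (LTP4), one of a family of small secreted proteins that bind lipids, had 4936, 5771 and 6186 TPM at s1, 4118, 4522 and 5276 TPM at s2, 2734, 3715 and 4523 TPM at s3 and 1858, 2410.5 and 3060.4 TPM at s4. The stages overlapped only slightly and the log2 fold change was -1.16 ± 0.09. In 7 libraries its counts were not whole, and added to those of Aqcoe1G403300, a second LTP4 hit, they were whole in all 32 libraries. That second locus had 869 TPM at s4, against 297 TPM at s1 (log2 fold change 1.62 ± 0.28, edgeR adjusted p = 5.6e-05), and the summed pair kept 0.555 of S1 at s4 and would not have met the rule.

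A pair of SEC14-type lipid transfer loci was also abundant. Aqcoe2G081500 had 34.9, 104 and 114 TPM at s4, against 206, 238 and 317 TPM at s1, with the low value in replicate 4, and Aqcoe1G148200 had 84.4, 88.7 and 107 TPM at s4, against 163, 213 and 263 TPM at s1, with replicate 4 as its highest s4 library. Aqcoe2G031000, a lipid transfer and protease inhibitor locus, had 43.5, 63.1 and 94.95 TPM at s4, against 121, 192 and 285 TPM at s1. For the last of these, every s4 library was below every s3 library. Aqcoe5G084000, with a heavy metal binding domain, had 49.6, 72.9 and 76.6 TPM at s1, 23.9, 54.6 and 61.3 TPM at s2, 13.3, 25.9 and 28.97 TPM at s3 and 11.3, 21.2 and 25.2 TPM at s4. Its largest step was the middle one, at -1.02 ± 0.17 on the log2 scale, and it was one of the 4 loci called at s3 against s2 beside Aqcoe3G422300, Aqcoe7G055500 and the HMG box locus Aqcoe2G397100. Aqcoe7G323900, a homolog of the zinc transporter gene ZIP11, had 3.52, 4.93 and 8.23 TPM at s4, against 12.3, 17.3 and 20.3 TPM at s1.

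The transport locus Aqcoe1G437600, a homolog of the amino acid transporter gene CAT7, varied widely between libraries. It had 18.6, 55.1 and 188 TPM at s1, 6.18, 24.1 and 213 TPM at s2, 3.26, 21.1 and 119.9 TPM at s3 and 1.09, 2.29 and 13.8 TPM at s4. Replicates 5 of s1, 7 of s2 and 7 of s3 were the high ones, s2 and s3 overlapped with s1, and the log2 fold change of -3.93 ± 0.79 carried a wide error. The s2 mean was 53.0 TPM, against a median of 24.1 TPM, so the locus met the S2 condition largely through s2 replicate 7. With each library left out in turn, the locus met the rule in 31 of 32 fits.

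Metabolic loci were 11, with a median of 38.2 TPM at s1 and 5.06 TPM at s4. The most abundant was Aqcoe2G306300, a 2-oxoglutarate and iron dependent oxygenase locus, with 373, 547 and 664 TPM at s1, 280.1, 432 and 776 TPM at s2, 179, 303 and 438 TPM at s3 and 84.4, 120.3 and 186 TPM at s4. Replicates 5 and 7 of s2 exceeded all s1 libraries, 7 of 8 s4 libraries were below all s3 libraries, and the log2 fold change was -1.94 ± 0.19. Aqcoe2G315500, a homolog of COPPER/ZINC SUPEROXIDE DISMUTASE1 (CSD1), which detoxifies superoxide, showed a deeper course. It had 30.99, 37.2 and 53.5 TPM at s1, 18.5, 24.3 and 45.1 TPM at s2, 10.8, 18.2 and 21.9 TPM at s3 and 1.58, 3.89 and 7.62 TPM at s4. Its s4 libraries were wholly below those of s3 and the log2 fold change was -3.005 ± 0.22. Aqcoe5G074000, the other CSD1 hit, was the more abundant locus and went the other way, with 459 TPM at s4, against 233 TPM at s1 (log2 fold change 1.05 ± 0.21, edgeR adjusted p = 0.00037).

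Among enzymes of lipids and sugars, the GDSL lipase locus Aqcoe1G119200 had 78.5, 112 and 142 TPM at s1, 84.2, 109 and 128 TPM at s2, 58.4, 71.6 and 82.1 TPM at s3 and 18.8, 36.3 and 44.1 TPM at s4. The ranges of s2 and s1 were close, and both later steps were wholly apart (log2 fold change -1.61 ± 0.13). Of the annotated family 35 glycosyl hydrolases, which share the best hit AT5G01075, Aqcoe6G287800 had 16.9, 23.7 and 39.3 TPM at s4, against 54.3, 63.2 and 71.6 TPM at s1 and Aqcoe5G104500 had 19.8, 20.9 and 32.6 TPM at s4, against 47.3, 56.8 and 63.7 TPM at s1. Their log2 fold changes of -1.19 ± 0.12 and -1.22 ± 0.11 lay within an SE of each other. Aqcoe5G348700, a homolog of the hydroxysteroid dehydrogenase gene HSD1, had 4.48, 17.8 and 21.5 TPM at s4, against 34.6, 37.6 and 46.2 TPM at s1, and Aqcoe4G009200, a homolog of the sterol desaturase gene CYP710A1, had 1.97, 3.71 and 6.05 TPM at s4, against 6.77, 8.22 and 14.5 TPM at s1. Both lay near the upper limit of S4 over S1, at 0.431 and 0.446, and the log2 fold change of Aqcoe4G009200 was -1.08 ± 0.26, or -0.95 without s1 replicate 8, which had its highest s1 value.

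Of 25 loci with other annotations, the most abundant was Aqcoe1G457900, a homolog of FPF1-LIKE PROTEIN1 (FLP1), a relative of the flowering promoter FPF1 of Arabidopsis. It had 268, 345 and 388 TPM at s1, 203, 252 and 284 TPM at s2, 137, 182 and 194 TPM at s3 and 23.2, 147 and 173 TPM at s4. All s3 libraries were below all s2 libraries, replicate 4 of s4 was far below the other s4 libraries, and the log2 fold change was -1.29 ± 0.20. Aqcoe3G385800, a calcium-dependent phosphotriesterase locus, had 12.9, 49.1 and 57.4 TPM at s4, against 106, 139 and 176 TPM at s1, and again replicate 4 was lowest at s4. Aqcoe3G136200, a homolog of TERMINAL EAR1-LIKE2 (TEL2), an RNA-binding protein gene of the Mei2-like family, was chosen after its values were seen. It had 44.005, 57.5 and 70.4 TPM at s1, 35.6, 41.6 and 59.4 TPM at s2, 20.1, 26.2 and 35.6 TPM at s3 and 15.2, 18.7 and 24.7 TPM at s4, with s3 wholly below s2 and a log2 fold change of -1.45 ± 0.12. LPR2 homolog Aqcoe7G255200, ankyrin repeat locus Aqcoe1G198900 and Aqcoe1G141100 had S4 over S1 of 0.448, 0.445 and 0.361. The log2 fold change of Aqcoe7G255200 was -1.07 ± 0.21, or -0.995 without s4 replicate 6.

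Of the 9 loci with no annotated hit, the most abundant were Aqcoe3G233500, with 11.2, 18.7 and 27.9 TPM at s4, against 47.2, 54.3 and 69.3 TPM at s1, and Aqcoe4G156300, with 26.4, 39.1 and 63.4 TPM at s1, 9.30, 26.7 and 40.9 TPM at s2, 5.35, 9.84 and 27.01 TPM at s3 and 0.599, 10.3 and 13.9 TPM at s4. Levels of Aqcoe4G156300 overlapped broadly between s4 and s3 and were lowest in replicate 7 at s1, s2 and s3. In the other 7, S4 over S1 ran between 0.158 and 0.433. One of these, Aqcoe2G004600, shared reads with Aqcoe2G009400, and the summed pair had S4 at 1.06 of S1. That sum mostly follows the partner, which had 1102 TPM at s4, against 1018 TPM at s1. Aqcoe2G004600 itself had 16.9 TPM at s4, against 39.0 TPM at s1, so the sum cannot show its own course. Another, Aqcoe1G312600, shared reads with Aqcoe1G311900, and that pair together, with S4 at 0.347 of S1, still met the rule.

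Many of the loci had a counterpart with the same best Arabidopsis hit, so that the members of a small family could be set side by side. Of the 90 loci, 35 shared their hit with at least 1 other annotated locus, over 28 hits, and 6 hits were held by more than 1 of the 90 (VIM1, ANT, TMO6, VRN1, the SEC14 hit and AT5G01075). There were 32 loci outside the set with these hits. At s4 against s1, 18 of the 32 were called lower, 7 higher and 7 neither, beside 19.6% lower and 64.5% higher over the 1952 annotated loci tested, the 90 included. The loci called higher had log2 fold changes from 1.05 to 3.22 and were the second CSD1, LTP4 and PHYE hits, a 2-oxoglutarate oxygenase hit of the family of Aqcoe2G306300 (Aqcoe2G226500), and Aqcoe3G411200, Aqcoe6G098400 and Aqcoe1G211900. Of these, the second PHYE hit, Aqcoe4G247900, had 1.91 TPM at s4, against 0.982 TPM at s1 (log2 fold change 1.06 ± 0.22, adjusted p = 0.00044 by edgeR), so that Aqcoe1G205900 was still the higher of the 2 at s4, with 2.40 TPM. The differences between partners were not tested, and the annotation lists only loci that the study called somewhere, which leaves out unchanging relatives.

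**Figure D4:**
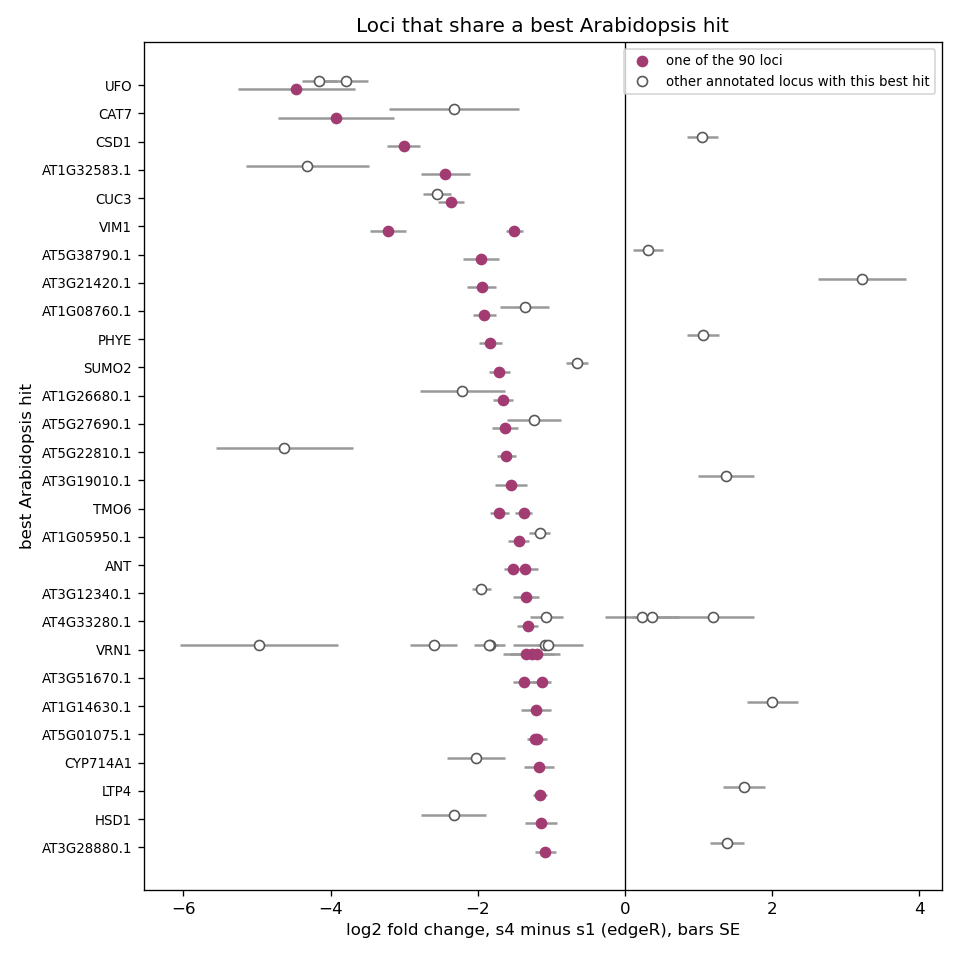
Log2 fold change at s4 minus s1 from edgeR (x axis, bars are SE, 8 libraries a stage) for loci grouped by shared best Arabidopsis hit (y axis). Filled points are the 35 of the 90 loci that share a hit, and open points are other annotated loci of the same hit. All filled points are at or below -1.08, being low by selection, and 7 of the 32 open points, among them the second CSD1 (1.05) and LTP4 (1.62) hits, are called higher.

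The set was further compared with loci that met the same level, S4 and separation conditions but with another time course. Of 134 such loci, counted without those that carry an Aq symbol or are left out by name, 90 were gradual, 28 were early (S2 at most 0.6 of S1), 14 late (S3 at least 0.7 of S1) and 2 missed only the order. The early loci kept a median of 0.550 of S1 at s2 and 0.212 at s4, and the late loci 0.902 at s2 and 0.420 at s4, values which the rules set. Transcription factors made up 27.8% of the gradual, 21.4% of the early and 28.6% of the late loci, and 21.2% of all 397 loci called lower at s4 against s1. Loci without annotation were 10%, 10.7%, 7.14% and 20.7% in the same order.

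Features that the rule did not use were set beside those of other expressed loci, without a test. The median transcript length was 1526 bp, against 1661 bp for loci with S1 of at least 5. Estimated counts were whole in every library for 76.7% of the 90 loci, against 63.3% of those loci (a count was taken as whole within 0.01). A count that is not whole is one that kallisto split between similar transcripts. In 14 of the 90 it was not whole in 16 or more libraries, among them the named loci Aqcoe3G422300 (20 of 32 libraries), Aqcoe6G211400 (31), Aqcoe6G259300 (16), Aqcoe7G166200 (32), Aqcoe1G148200 (32), Aqcoe5G084000 (32) and Aqcoe7G318500 (31), whose own levels are uncertain to that extent. The same holds for the B3 domain loci Aqcoe1G399300 (32) and Aqcoe6G028500 (29) described above. By the chromosome in the identifier, the set held 14 loci on chromosome 1, 18 on 2, 14 on 3, 8 on 4, 11 on 5, 8 on 6 and 17 on 7. As a share of loci with S1 of at least 5, these ran from 0.445% on chromosome 5 to 0.969% on chromosome 4. The spread between libraries of a stage grew along development, with median coefficients of variation of 16.3%, 22.4%, 23.5% and 29.97% in s1, s2, s3 and s4, against 13.8%, 17.6%, 18.3% and 22.01% for loci with S1 of at least 5, and it was largest where a library held 1 bud.

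Within stages the loci tended to deviate together. Over the 32 libraries, with each value taken from its stage mean, the median correlation between pairs of the 90 loci was r = 0.19, and 83 of the 90 loci correlated positively with the average of the others. The lowest were the PLATZ locus Aqcoe7G079300 (r = -0.29), the RPL homolog Aqcoe2G233200 (-0.16), the F-box locus Aqcoe7G318500 (-0.14) and the UFO homolog Aqcoe4G199100 (-0.09). These are descriptions across libraries that share depth and composition. The same correlations were not computed for other loci, so deviating together cannot be called particular to the set. Of the 4 lowest loci, 3 were among the 11 loci with their highest s4 value in replicate 4. Replicate 3 of s4 was the highest s4 library for 30 of the 90 loci, against 12.5% of all loci with S1 of at least 5, and s3 replicate 2 the lowest of s3 for 41, against 23.97%.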

How the data were processed

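Per the study, reads were trimmed with Trim Galore and quantified with kallisto 0.46.1 on the 'Goldsmith' v3.1 transcriptome. The files deposited by the authors give, for each of 30023 loci in each of 32 libraries, the estimated count, left without normalization, and the TPM, in which the authors' run of kallisto corrected for effective length and library size. Library kits (SMART-Seq v4 and Nextera XT) do not keep strand, so antisense genes cannot be told apart. Library totals were 21502103 to 31647297. No batch is given in the labels.

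Stage and replicate came from the sample labels. The 90 loci were found from the TPM by the rule in the report. The members, role groups and comparison lists were chosen with earlier results of these data known. Loci with over 1 CPM in at least 1 library (20477) were tested with edgeR 4.0.16 (R 4.3.3) on estimated counts rounded to whole numbers, with TMM factors, with all 32 libraries and the 4 stages in 1 model, and p-values were Benjamini-Hochberg adjusted over all loci tested. In simulated counts for s4 against s1 (20096 loci, 200 planted changes of 3 and 4 fold), 96% of planted changes were called and 2 unchanged loci were. Smaller changes and neighbouring stages were not simulated, whereas the median S1 over S4 of the 90 loci was 2.93. The libraries are of separate buds, and the p-values measure the spread between them. The study dissected more buds than it had plants, so buds of the same plant can be in different libraries. Which plant gave which bud is not in the labels, and the model did not account for shared plants. Tables used Python 3.11.15 and pandas 2.3.3, and figures matplotlib 3.10.9.

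Loci were named by a rule: in each role group the 6 with the highest S1 (2 for other and for no annotation), the 5 lowest and 5 highest in S4 over S1, the 5 highest in S1, and those nearest each threshold. Best Arabidopsis hits and descriptions are from the study's annotation of the loci it called. No locus of the set was found in the RefSeq gene table at hand (0 of 90), so no position beyond the chromosome and no sequence is given. Alternatives were DESeq2 1.42.0, length-scaled TPM counts, RLE size factors, no filter, the 16 libraries of each comparison alone, the replicate number as a block, other settings of the rule and leaving out each library.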

Additional observations from a re-analysis of the deposited data

Results flagged for a closer look

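Single libraries stood far from the other 7 of their stage in 20 of 176 groups examined (42 named loci and 2 measures of the whole set at 4 stages). The mark was a gap to the next library, over the range, above Dixon's 95% critical value for 8 samples. Chance flags about 1 in 20 groups if values are normally spread. The groups reuse the same libraries and the loci tend to deviate together, so no excess over that rate is read from the count. Of the 20 values so marked, 8 were in s4 replicate 4, 4 in s3 replicate 7, 2 in s2 replicate 7 and 2 in s4 replicate 3.

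In s4 replicate 4, the values were low for Aqcoe5G348700, the HSD1 homolog (4.48 TPM, next lowest 16.3), Aqcoe1G457900, the FLP1 homolog (23.2, next 117), Aqcoe1G198900 with ankyrin repeats (2.11, next 3.23), Aqcoe1G141100 (0.496, next 2.25), Aqcoe6G259300, an ANT homolog (21.2, next 50.001), the SEC14 locus Aqcoe2G081500 (34.9, next 77.5) and Aqcoe5G084000 with a heavy metal domain (11.3, next 18.9). In the same library the F-box locus Aqcoe7G318500 was high (14.1 TPM, next highest 8.998).

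Replicate 7 was high for Aqcoe5G038100, the ERF7 homolog, at s2 (1330 TPM, next 815) and at s3 (988, next 653), and for Aqcoe1G437600, the CAT7 homolog, at s2 (213, next 76.6) and at s3 (119.9, next 50.02). In s3 replicate 7 the values were low for Aqcoe1G457900 (137 TPM, next 172) and Aqcoe5G084000 (13.3, next 21.7). Among all 90 loci, 14 had their highest s2 value in s2 replicate 7 and their highest s3 value in s3 replicate 7, a share below that of loci with S1 of at least 5 (16.0%).

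In s4 replicate 3, Aqcoe5G038100 was high (499.7 TPM, next 380.5), as was the UFO homolog Aqcoe4G199100 (1.62, next 0.478). Others were a low Aqcoe7G078300, the YAB3 homolog, in s3 replicate 2 (326 TPM, next 400.3), a high Aqcoe2G315500, the CSD1 homolog, in s2 replicate 5 (45.1, next 29.3), a high Aqcoe1G198900 in s2 replicate 1 (10.4, next 7.42) and a high Aqcoe4G009200, the CYP710A1 homolog, in s1 replicate 8 (14.5, next 10.4).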

How the results depend on the processing

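The size of the set moved with its rule. It was 83 with stage medians in place of means, 72 with TMM-scaled CPM per kb, 70 with S1 of at least 10 TPM, 69 with S4 at most 0.4 and 115 with S4 at most 0.5 of S1, and 122 without the separation of s4 and s1. With each library left out in turn it ran from 87 to 100, and 64 of the 90 loci were found in all 32 of these fits. Because the rule asks for S2 above 0.6 of S1, calls at s2 against s1 were nearly excluded in advance, and agreement there tests nothing. The number of the 90 loci called lower was 0 at s2 against s1 under every alternative run. With single libraries left out it was 2 to 5 at s3 against s2, where 4 were called with all libraries and 2 without s2 replicate 1, 2, 3 or 5 or s3 replicate 5 or 7. It was 12 to 20 at s4 against s3, 18 to 27 at s3 against s1, 55 to 60 at s4 against s2 and 88 to 90 at s4 against s1. Under the other alternatives the counts were 3 to 4, 13 to 16, 21 to 23, 55 to 58 and 90 in the same order. Same-numbered libraries of different stages had a median correlation of 0.00 in their deviations (-0.46 to 0.62). Of such pairs, 17 of 48 were over 0.1, against 117 of 336 other pairs. The replicate numbers thus gave no general pairing, but whether some same-numbered libraries share a plant cannot be told from these values. With the replicate number as a block, the counts were 0 at s2 against s1, 3 at s3 against s2, 15 at s4 against s3, 23 at s3 against s1, 56 at s4 against s2 and 90 at s4 against s1. For the named loci, the median log2 fold change at s4 minus s1 was -1.40, and -1.43 to -1.34 without single libraries, -1.41 to -1.38 under the other alternatives. No direction turned. Short of 1 in size were LAX2 (-0.97) and Aqcoe3G223800 (-0.97) without s4 replicate 4, NPY1 (-0.998) without s1 replicate 6, CYP710A1 (-0.95) without s1 replicate 8 and LPR2 (-0.995) without s4 replicate 6. The UFO homolog Aqcoe4G199100 had -5.65 without s4 replicate 3. Levels under about 1 TPM, as of that locus at s4, rest on few counts.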
